A study of Mus musculus with 8 samples.

Results

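The connective tissue of the sciatic nerve was followed through 32 genes that mark or build its fibroblast and perineurial compartments, collagens left out. They were chosen by symbol as genes of these cells, with earlier results of these data known, and all 32 were found among the 55487 gene identifiers of the table. Of the 32, 31 had enough counts to be tested; Wif1 did not, and is described by its counts alone. The marker genes Pdgfra (fibroblasts) and Ntng1 (perineurial cells) were detected in all 8 libraries.

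A peripheral nerve is packed in layers of mesenchymal cells. Endoneurial fibroblasts lie among the axons and Schwann cells inside each fascicle, perineurial cells form the sleeve of tight-junctioned layers around it, and epineurial (adventitial) fibroblasts fill the loose outer coat. All of these cells secrete matrix, and Schwann cells instruct the formation of the perineurium during development. Most of the genes below are not private to 1 layer, and matrix genes such as Sparc, Fn1 and Gsn are also expressed by other nerve cells.

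The whole sciatic nerve was taken from mouse pups (postnatal day 6) for RNA. The 4 Ctrl libraries were from animals without Cre (CNP+/+ Cdk7lox/lox), and the 4 CNP-Cdk7cKO libraries from animals with Cre at 1 Cnp allele (CNPcre/+ Cdk7lox/lox); both groups carried 2 floxed Cdk7 alleles. Cre driven from Cnp is directed at Schwann cells, so the fibroblasts and perineurial cells measured here are mostly neighbours of the targeted cells. Nothing in the labels states that the libraries of a group are different animals; p-values therefore speak only of library-to-library spread. In bulk RNA, fewer cells of a type and less RNA per cell cannot be told apart.

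Expression is given in CPM, the count scaled to a library size corrected by TMM (trimmed mean of M values). The CNP-Cdk7cKO libraries are called knockout and the Ctrl libraries control. Fold changes are CNP-Cdk7cKO over Ctrl on the log2 scale with standard errors (estimates), and p-values come from the edgeR quasi-likelihood test, adjusted by Benjamini and Hochberg's method over the 15056 genes tested. A gene was called at an adjusted p under 0.05.

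Library totals ran from 16897242 to 21527891 estimated counts. Cdk7 measured 20.6 to 22.2 CPM (controls) and 9.62 to 12.7 CPM (knockouts). Xist reached 305 CPM in Ctrl 1 and 281 to 331 CPM in knockout libraries, but at most 0.10 CPM in Ctrl 2, 3 and 4, so Ctrl 1 was the only control library with a female level of Xist. Summed expression of 14 Schwann cell markers was 134431 to 150758 CPM (controls) and 102542 to 112424 CPM (knockouts). Of the 14, 8 were called lower by edgeR, DESeq2 and limma-voom, and 5 in a model with Xist. Over all tested genes edgeR called 6.6% lower. Of 20 skeletal muscle markers 17 were called lower by edgeR, but 4 by limma-voom with quality weights, 1 in the female libraries and 0 in a model with Xist, and the groups did not overlap for 6, with sums of 632 to 6103 CPM (controls, Ctrl 4 highest) and 117 to 761 CPM in CNP-Cdk7cKO. The part of sex, muscle transcripts and Schwann cell marker levels in the values below was not tested beyond the fits named beside them.

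Most of the fibroblast and perineurial genes were not called. Of the 31 tested, 3 rose (Pdgfra, Osr2 and Bgn) and 2 fell (Gsn and Ntng1), or 16.1%, beside 11.7% of all tested genes. Before adjustment, 14 of the 31 were at an edgeR p under 0.05, and the share of all tested genes at that level was not computed. Higher calls made up 5.07% and lower calls 6.6% of all tested genes. The median log2 fold change of the 31 was 0.07, beside 0.00 for all tested genes, and the estimates ran from -0.63 (Ntng1) to 0.49 (Lypd2). The 2 groups did not overlap for 9 members, 6 of them higher and 3 lower in CNP-Cdk7cKO, against 18.8% of all tested genes (9.34% higher and 9.51% lower). Summed over all 32 genes, expression was 15698 to 16863 CPM (controls) and 16149 to 17482 CPM (knockouts), ranges that overlap. With Xist as a covariate 1 member was called (Ntng1), in a model with the muscle markers 2 (Osr2 and Lum), and in the female libraries alone, where Ctrl 1 stands alone for the controls and its variation is taken from the knockout libraries, 0 (edgeR; 7 of the 31 were at an unadjusted p under 0.05).

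**Figure D1:**
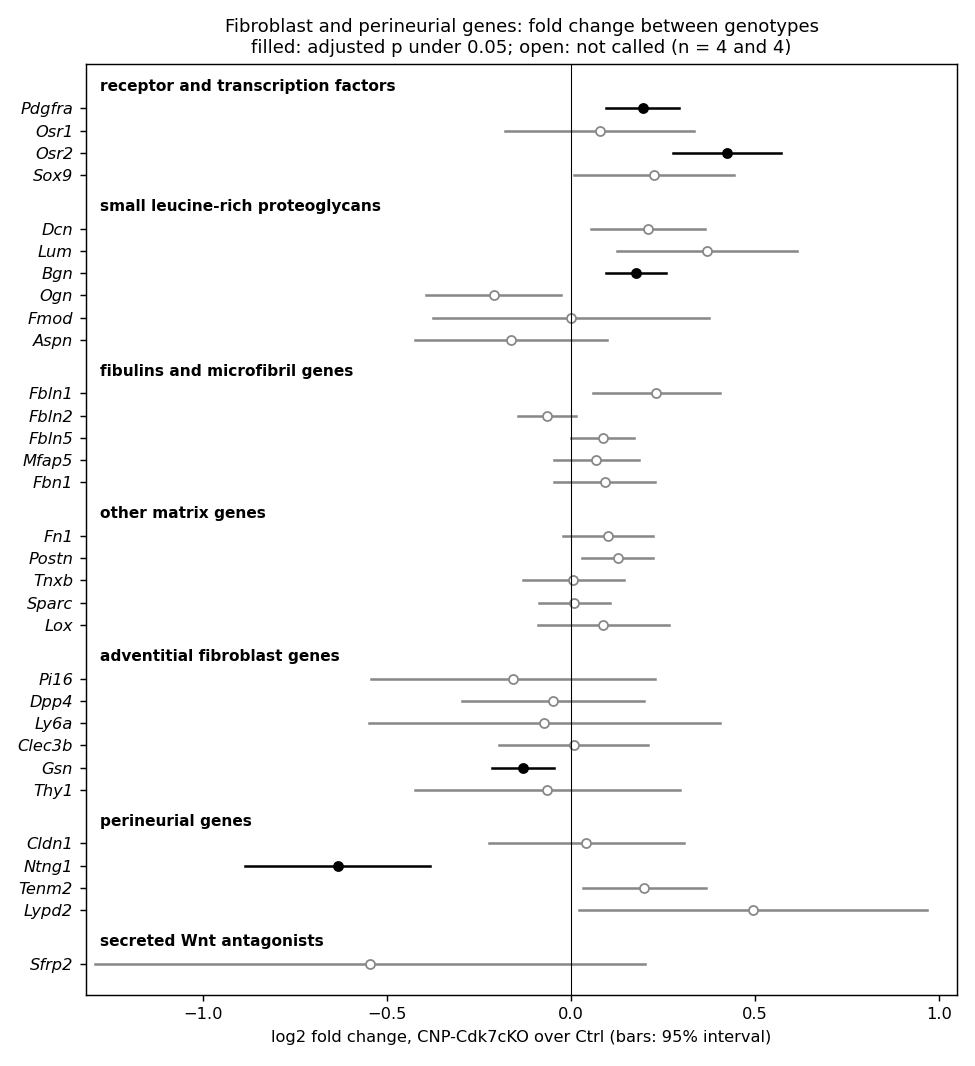
Log2 fold change of each of the 31 tested genes (x axis, CNP-Cdk7cKO over Ctrl) with its 95% interval, grouped by role; filled black points passed an adjusted p under 0.05. Of the 5 called genes Osr2 (0.42) lies furthest right and Ntng1 (-0.63) furthest left.

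Receptor and transcription factor genes of mesenchymal cells were on the higher side in the knockout nerves, and 2 of 4 were called. Osr2, a zinc finger transcription factor that is enriched in endoneurial fibroblasts, measured 29.9, 29.8, 32.7 and 30.8 CPM for controls 1 to 4 and 39.8, 44.9, 37.0 and 43.6 CPM for knockouts 1 to 4. The 4 knockout values all lay above the 4 control values. The log2 fold change was 0.42 ± 0.07 (SE, edgeR quasi-likelihood adjusted p = 0.00281), and Osr2 was called whichever library was left out. A model with the muscle markers kept the call (0.52, adjusted p = 0.0357). A model with Xist did not (0.46, adjusted p = 0.081), nor did the fit restricted to female libraries (0.46, adjusted p = 0.184).

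Pdgfra, the platelet-derived growth factor receptor that marks nerve fibroblasts of every layer, measured 80.1, 83.2, 77.2 and 81.4 CPM (controls) and 89.8, 97.2, 91.3 and 90.1 CPM (knockouts). The groups did not overlap, and Pdgfra rose (log2 fold change 0.19 ± 0.05 SE; edgeR quasi-likelihood test, adjusted p = 0.0188). It did not pass without Ctrl 3 (adjusted p = 0.0607) or without CNP-Cdk7cKO 2 (adjusted p = 0.0519), in a model with Xist (adjusted p = 0.25) or with the muscle markers (adjusted p = 0.112), or when fitted to female libraries (0.20, adjusted p = 0.382).

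Sox9, a transcription factor of endoneurial fibroblasts and of chondrocytes, measured 30.6 to 32.5 CPM (controls) and 35.8, 43.3, 38.2 and 29.1 CPM (knockouts). CNP-Cdk7cKO 1, 2 and 3 were above every control and CNP-Cdk7cKO 4 was below them all, and Sox9 was not called (0.23, edgeR quasi-likelihood adjusted p = 0.175; without CNP-Cdk7cKO 4, 0.32 and 0.0166). Cartilage markers, listed because they share Sox9, summed to 114 to 137 CPM (controls) and 123 to 169 CPM (knockouts), with CNP-Cdk7cKO 4 highest, and 0 of the 6 tested were called by edgeR (2 at an unadjusted p under 0.05; DESeq2 called 1 higher and limma-voom 1 lower). Osr1, a relative of Osr2 in fibroblast progenitors, had a log2 fold change of 0.08 with a 95% interval of -0.18 to 0.33.

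In GENCODE M21 (GRCm38) Pdgfra is annotated at chr5:75152292-75198215, Osr2 at chr15:35296098-35303305, Bgn at chrX:73483602-73495933 and Gsn at chr2:35256380-35307892, all on the plus strand, and Ntng1 at chr3:109780040-110144011 on the minus strand. All 5 are protein-coding, and counts are summed over the whole gene. Promoter sequence is shown for Pdgfra, Bgn and Ntng1, the called members with a single start site in the RefSeq table (GRCm38.p6, windows from 250 bases before to 50 bases after the start). Osr2 had no entry, and 20 of the 32 members had at least 1. The windows are Pdgfra chr5:75152001-75152300 (plus strand), Bgn chrX:73483351-73483650 (plus strand) and Ntng1 chr3:110143423-110143722 (minus strand), each written 5′ to 3′ along the gene. Capitals mark matches on either strand to any of 3 motifs, overlapping matches kept. The TATA motif was TATAAA. The GC box was GGGCGG. The third motif was CCAAT.
Pdgfra: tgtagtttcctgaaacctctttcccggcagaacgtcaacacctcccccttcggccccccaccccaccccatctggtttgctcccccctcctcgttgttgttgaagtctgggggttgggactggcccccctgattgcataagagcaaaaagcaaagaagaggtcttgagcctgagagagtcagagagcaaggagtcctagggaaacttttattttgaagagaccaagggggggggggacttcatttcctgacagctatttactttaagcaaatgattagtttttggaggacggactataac
Bgn: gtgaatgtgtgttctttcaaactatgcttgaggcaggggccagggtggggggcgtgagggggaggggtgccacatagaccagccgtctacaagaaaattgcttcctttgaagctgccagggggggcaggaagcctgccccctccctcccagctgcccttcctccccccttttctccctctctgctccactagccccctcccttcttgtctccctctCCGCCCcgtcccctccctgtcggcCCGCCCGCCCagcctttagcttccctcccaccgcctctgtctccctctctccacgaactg
Ntng1: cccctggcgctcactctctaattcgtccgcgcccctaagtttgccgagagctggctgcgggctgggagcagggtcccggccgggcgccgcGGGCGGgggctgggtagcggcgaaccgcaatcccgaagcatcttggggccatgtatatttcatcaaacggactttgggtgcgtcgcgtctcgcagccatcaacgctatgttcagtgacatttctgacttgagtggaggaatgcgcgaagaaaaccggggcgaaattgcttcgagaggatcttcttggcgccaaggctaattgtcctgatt
Bgn held 3 GC boxes, all on the opposite strand and within 34 bases upstream of the start, of which the last 2 overlap. Ntng1 held 1 GC box, 160 bases upstream. The Pdgfra window held none of the 3 motifs. Of all 32851 promoters in the table, 35.7% held a GC box, 13.6% the TATA motif and 37.4% the third motif, and of the 25 windows of the members 11 held a GC box.

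The small leucine-rich proteoglycans, which bind collagen fibrils and control their diameter and spacing, were split. Bgn (biglycan), on the X chromosome, measured 616, 602, 587 and 581 CPM (controls) and 667, 667, 661 and 697 CPM (knockouts). It was the least variable of the 6, all 4 knockout values were above all controls, and it rose (log2 fold change 0.17 ± 0.04 SE; edgeR quasi-likelihood test, adjusted p = 0.0122). The call held whichever library was left out. It ended in a model with Xist (0.13, adjusted p = 0.34), in a model with the muscle markers (0.14, adjusted p = 0.355) and in the fit restricted to female libraries (0.13, adjusted p = 0.569).

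Dcn (decorin) and Lum (lumican), neighbours on chromosome 10, were not called. Dcn measured 1386, 1291, 1137 and 1290 CPM (controls) and 1515, 1608, 1474 and 1300 CPM (knockouts) (estimate 0.21, edgeR quasi-likelihood adjusted p = 0.0851). Lum measured 273, 282, 264 and 297 CPM (controls) and 387, 440, 333 and 281 CPM (knockouts) (estimate 0.37, edgeR quasi-likelihood adjusted p = 0.0555). In both genes CNP-Cdk7cKO 4 sat inside the control range while the other knockout libraries lay above it. Without CNP-Cdk7cKO 4 both passed (Dcn 0.26, adjusted p = 0.0259; Lum 0.47, adjusted p = 0.00911), and Lum also passed by limma-voom (adjusted p = 0.00917) and without the count filter (adjusted p = 0.0185), Dcn by limma-voom (adjusted p = 0.0228) and by DESeq2 (adjusted p = 0.0398). Neither passed in a model with Xist (Dcn 0.091, adjusted p = 0.74; Lum 0.40, adjusted p = 0.341) or when fitted to female libraries (Dcn 0.086, adjusted p = 0.803; Lum 0.40, adjusted p = 0.463).

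Ogn (osteoglycin) and Aspn (asporin), neighbours on chromosome 13 that both overlap the gene Cenpp on the other strand, had estimates below 0; whether counting used strand is not given in the sources used here. Ogn measured 640, 576, 536 and 577 CPM (controls) and 522, 567, 503 and 420 CPM (knockouts) (log2 fold change -0.21, 95% interval -0.40 to -0.03, edgeR quasi-likelihood adjusted p = 0.136). Aspn had a log2 fold change of -0.16 (interval -0.42 to 0.10), and both genes were lowest in CNP-Cdk7cKO 4. In a model with Xist the estimate was -0.35 for Ogn (adjusted p = 0.196) and -0.0023 for Aspn (adjusted p = 0.997). Fmod (fibromodulin), abundant in tendon, had a mean of 66.5 CPM (controls) and 66.4 CPM (knockouts) but ranged from 48.4 to 82.2 CPM, so its interval was wide (-0.38 to 0.37). Tendon markers summed to 646 to 805 CPM (controls) and 892 to 1049 CPM (knockouts), most of it Thbs4, which is also expressed in nerve; 1 of the 4 tested (Thbs4) rose.

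Fibulins and microfibril genes, which assemble elastic fibres, held 0 calls among 5 by edgeR, DESeq2 and limma-voom, with 2 at an unadjusted edgeR p under 0.05. Fbln5 was the tightest member of all 32 in Ctrl (129 to 131 CPM, coefficient of variation 0.67%), and measured 135 to 141 CPM in CNP-Cdk7cKO without overlap (estimate 0.09, edgeR quasi-likelihood adjusted p = 0.189). Fbln1 also did not overlap, at 39.4 to 42.1 CPM (controls) and 42.9 to 56.4 CPM (knockouts) (0.23, adjusted p = 0.0845), with CNP-Cdk7cKO 4 highest. Fbln2 went the other way, from 285 to 292 CPM in Ctrl to 270 to 282 CPM in CNP-Cdk7cKO (-0.07, adjusted p = 0.278). Mfap5 and Fbn1, a microfibril glycoprotein and the fibrillin that forms its core, overlapped between groups (0.07 and 0.09). Fbn1 measured 0.029 without Ctrl 1, where it was lowest, 0.30 in a model with Xist (adjusted p = 0.0531) and 0.29 when fitted to female libraries (adjusted p = 0.175), and over all alternatives Mfap5 ran from 0.010 to 0.14.

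Of the general matrix genes 0 of 5 were called by edgeR, DESeq2 or limma-voom, and 1 (Postn) had an unadjusted edgeR p under 0.05. Sparc, a collagen-binding matricellular protein gene, was the most abundant member per length, at 2295 CPM per kb of exon in Ctrl and 2308 CPM per kb in CNP-Cdk7cKO. Its libraries spanned 8183 to 9189 CPM (controls) and 8218 to 9136 CPM (knockouts) (log2 fold change 0.01, 95% interval -0.09 to 0.10). Tnxb, a tenascin gene of loose connective tissue, had an estimate as near 0 (0.01, interval -0.13 to 0.14). Postn (periostin) measured 1232, 1254, 1098 and 1162 CPM (controls) and 1288, 1300, 1276 and 1315 CPM (knockouts), which did not overlap but gave no call (0.13, edgeR quasi-likelihood adjusted p = 0.0954). Fn1 (fibronectin) and Lox, the lysyl oxidase that crosslinks collagen and elastin, had log2 fold changes of 0.10 and 0.09. Over the alternatives, none of which gave a call, Postn ran from 0.069 to 0.15, Fn1 from 0.052 to 0.19 and Lox from 0.042 to 0.17.

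Of 6 adventitial fibroblast genes 0 rose and 1 (Gsn) fell, and the others varied more between libraries of 1 genotype than between the group means. Pi16, a peptidase inhibitor gene that marks adventitial progenitor fibroblasts, measured 28.3, 30.5, 47.6 and 37.5 CPM (controls) and 31.2, 23.4, 35.9 and 38.8 CPM (knockouts) (log2 fold change -0.16, 95% interval -0.55 to 0.23). Ly6a, the stem cell antigen Sca-1, measured 16.0, 25.7, 31.3 and 25.8 CPM (controls) and 18.2, 17.3, 30.2 and 28.8 CPM (knockouts) (-0.07, interval -0.55 to 0.40). In both genes Ctrl 1 was the lowest control and CNP-Cdk7cKO 2 the lowest knockout. In a model with Xist the estimates turned positive without passing (0.19 for Pi16, 0.56 for Ly6a). The peptidase gene Dpp4 (-0.05), the tetranectin gene Clec3b (0.01) and the surface glycoprotein gene Thy1 (-0.06) had estimates near 0, with intervals reaching from -0.42 to 0.29 for Thy1, the widest of the 3.

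Gsn (gelsolin), which severs actin filaments and is abundant in fibroblasts but not limited to them, was the member of this group that fell. It measured 517, 519, 527 and 500 CPM (controls) and 451, 475, 474 and 485 CPM (knockouts), without overlap. Gsn fell by 8.66% (log2 fold change -0.13 ± 0.04 SE; edgeR quasi-likelihood test, adjusted p = 0.0493), at the edge of the threshold. It passed in 6 of 18 alternatives, 1 of the 8 that leave out a library (CNP-Cdk7cKO 4) among them, and its sign was the same in all 18. Left out 1 at a time, the other 7 libraries each ended the call, as did leaving out the count filter, either covariate, the replicate block and the restriction to female libraries, with adjusted p up to 0.517.

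**Figure D2:**
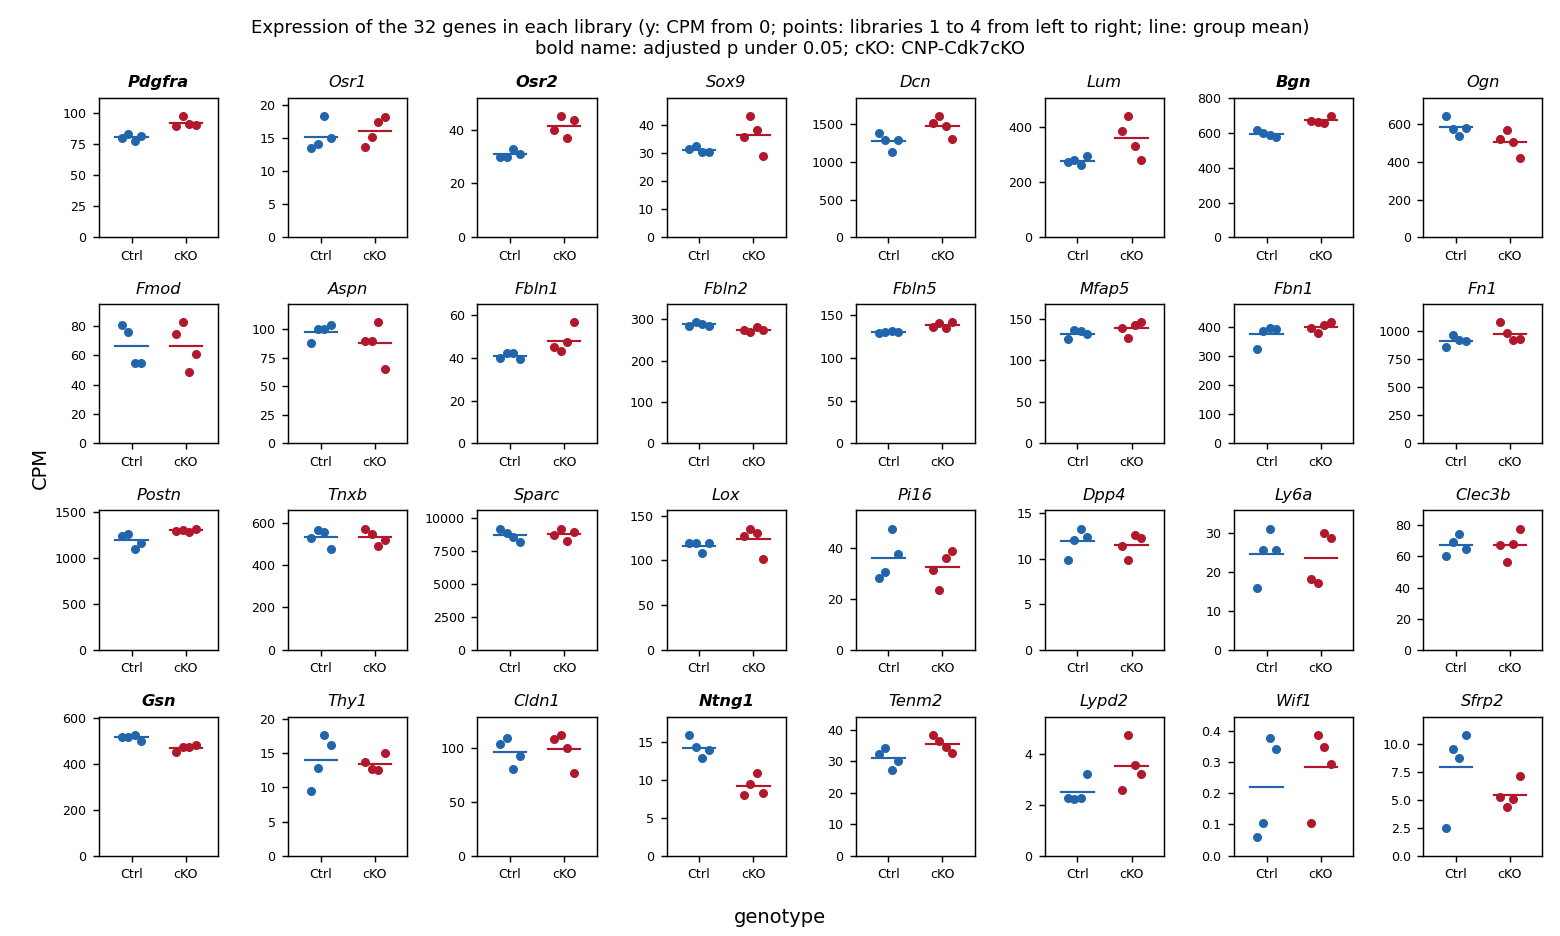
Expression of each of the 32 genes in CPM (y axis from 0) in the 4 Ctrl and 4 CNP-Cdk7cKO libraries, numbered left to right within a group, with a line at the group mean; bold names passed an adjusted p under 0.05. The 5 called genes have no overlap between groups, and the adventitial genes Pi16, Ly6a and Thy1 spread more widely within a group than between the group means.

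Perineurial genes held the largest called change. Ntng1 (netrin-G1), an adhesion protein gene used as a perineurial marker, measured 15.9, 14.3, 12.8 and 13.9 CPM (controls) and 8.02, 9.43, 10.9 and 8.24 CPM (knockouts). Each knockout library was below each control library, and the gene fell by 35.6% (log2 fold change -0.63 ± 0.11 SE; edgeR quasi-likelihood test, adjusted p = 0.00551). It was called whichever library was left out (-0.73 to -0.58) and in a model with Xist (-0.79, adjusted p = 0.0462). It did not pass in a model with the muscle markers (-0.78, adjusted p = 0.0516) or in the fit restricted to female libraries (-0.80, adjusted p = 0.0915). These values rest on 155 to 285 counts per library, and per length Ntng1 was near the bottom of the members, at 1.73 CPM per kb of exon in Ctrl and 1.11 CPM per kb in CNP-Cdk7cKO.

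The other 3 perineurial members were not called. Cldn1 (claudin 1), a tight junction protein of the perineurial barrier, measured 104, 110, 81.1 and 92.6 CPM (controls) and 108, 113, 100.3 and 76.8 CPM (knockouts), with overlap (log2 fold change 0.04, 95% interval -0.22 to 0.31). Tenm2, a teneurin adhesion gene, measured 27.4 to 34.3 CPM (controls) and 32.6 to 38.5 CPM (knockouts) (0.20, edgeR quasi-likelihood adjusted p = 0.123). Lypd2 had 37 to 98 counts per library and an estimate of 0.49 that did not pass (adjusted p = 0.171; 0.32 to 0.94 over the alternatives). Keratinocyte markers, listed because skin also expresses Cldn1, summed to at most 12.3 CPM in any library.

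A further 8 perineurial genes outside the 32 held 0 calls by edgeR in the reported fit (3 at an unadjusted p under 0.05). DESeq2, limma-voom and the model with Xist each called 1 of them, Itgb4, lower. The edgeR fits without the count filter, with the replicate block and without Ctrl 4 each called 1 of the 8 lower. Of the 8, 5 had estimates above 0 and 3 below (median 0.07). Itgb4, the integrin subunit of perineurial cells and Schwann cells, measured 306 ± 40.8 CPM for controls and 253 ± 12.7 CPM for knockouts (SD, n = 4; estimate -0.27, edgeR quasi-likelihood adjusted p = 0.0601). Tjp1, a tight junction scaffold gene, measured 109 ± 4.60 and 93.7 ± 13.5 CPM, without overlap between the groups (-0.22, edgeR quasi-likelihood adjusted p = 0.158).

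The secreted Wnt antagonists were at low levels. Sfrp2, made by adventitial fibroblasts, measured 2.51 CPM in Ctrl 1 but 9.57, 8.78 and 10.8 CPM in Ctrl 2, 3 and 4, and 5.28, 4.40, 5.04 and 7.12 CPM for knockouts 1 to 4. All knockout values lay between Ctrl 1 and the other controls, so the direction depended on which controls entered. Its estimate was -0.55 (edgeR quasi-likelihood adjusted p = 0.341), -0.83 without Ctrl 1 (adjusted p = 0.0112), 1.14 in a model with Xist (adjusted p = 0.0745) and 1.12 when fitted to female libraries (adjusted p = 0.182). Wif1, a Wnt-binding inhibitor used as an endoneurial fibroblast marker, had 1 to 8 counts per library and no test.

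By layer, the endoneurial markers Osr2 and Sox9 had estimates above 0 and 1 of the 2 was called. The epineurial markers Pi16, Dpp4, Ly6a, Clec3b, Mfap5 and Tnxb held 0 calls among 6 by edgeR, DESeq2 and limma-voom, with a median log2 fold change of -0.02 and 0 at an unadjusted edgeR p under 0.05. The perineurial markers held 1 call among 4, a fall (Ntng1), while the other 3 had estimates above 0. The median of the 4 was 0.12, and 3 were at an unadjusted edgeR p under 0.05 (Ntng1 below 0, Tenm2 and Lypd2 above 0). Their sums overlapped, at 124 to 161 CPM (controls) and 121 to 163 CPM (knockouts). Over all tested genes 11.7% were called. Whether the layers differed from each other was not tested.

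Libraries of 1 genotype differed in their epineurial genes. Ctrl 1 was the lowest control for 5 of the 6 epineurial markers, where it was the lowest control for 26.3% of all tested genes, and CNP-Cdk7cKO 2 was the lowest knockout for 5 of the 6, against 24.4%. Ctrl 3 was the highest control for 4 of the 6 epineurial markers, against 22.7% of all tested genes. In the overlapping set of 6 adventitial genes, Gsn included, Ctrl 3 was the highest control for all 6. In that set Ctrl 1 was the lowest control for 5 and CNP-Cdk7cKO 2 the lowest knockout for 4. These genes share libraries, so the counts describe the libraries and are not independent of each other.

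The small leucine-rich proteoglycans ran the other way across libraries. Ctrl 3, highest for the adventitial genes, was the lowest control for 4 of these 6, and CNP-Cdk7cKO 2 was the highest knockout for 4. CNP-Cdk7cKO 4 was the lowest knockout for 4 of the 6 (Dcn, Lum, Ogn and Aspn), against 30.2% of all tested genes.

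Marker sums of other cells also varied between libraries of 1 genotype, not all in the same way. Among controls, macrophage and mural cell markers were lowest in Ctrl 1 and highest in Ctrl 4, and Schwann cell markers were highest in Ctrl 1. Adipocyte markers summed to 91.9 CPM in Ctrl 1 and 142 to 255 CPM in the other controls, Ctrl 3 highest, and to 66.6 and 76.4 CPM in CNP-Cdk7cKO 1 and 2 and 106 and 128 CPM in CNP-Cdk7cKO 3 and 4. Endothelial markers summed to 402 CPM in Ctrl 1 and 521 CPM in Ctrl 3, with 397 CPM in CNP-Cdk7cKO 2 as the lowest knockout. Their part in the epineurial values was not tested.

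**Figure D3:**
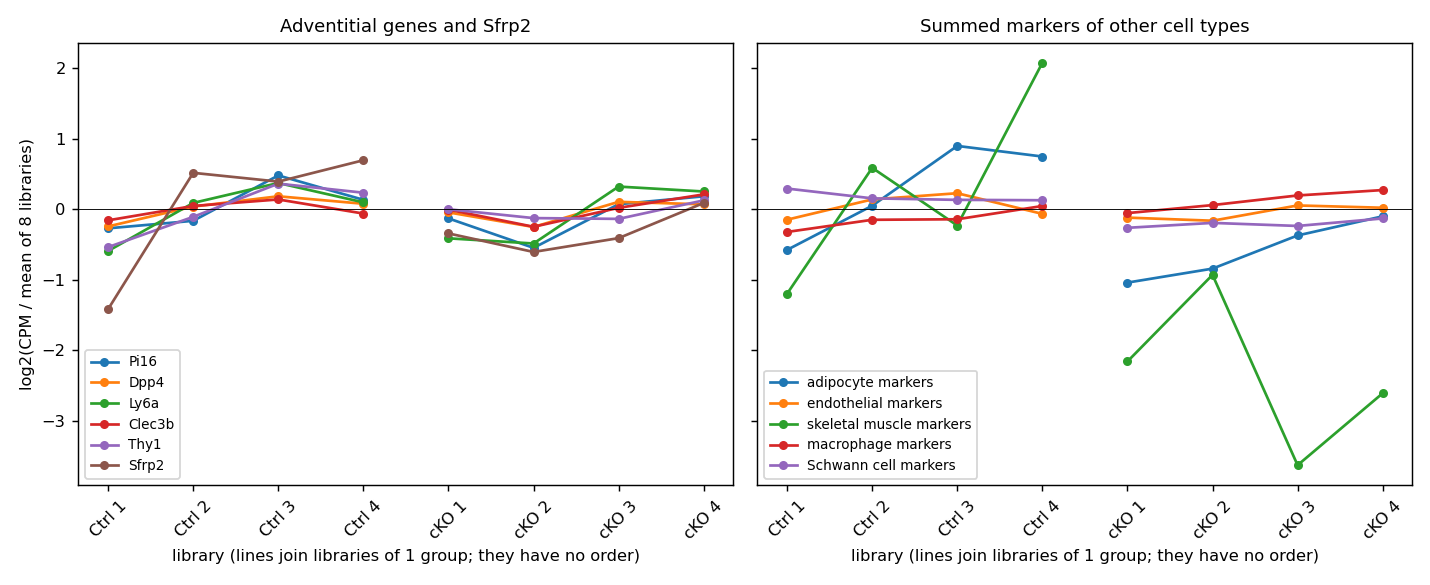
Left, log2 ratio of CPM to the mean of all 8 libraries for 5 adventitial genes and Sfrp2; right, the same for summed markers of 5 other cell types, with libraries on the x axis. Ctrl 1 and CNP-Cdk7cKO 2 lie low for most of the genes on the left, and the muscle markers on the right span the widest range.

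Other fibroblast genes gave more calls in the higher direction. Of 29 tested, 6 rose and 1 fell, or 24.1% beside 11.7% of all tested genes, with a median log2 fold change of 0.13. S100a4, a calcium-binding protein gene of fibroblasts and immune cells, rose from 16.2 ± 2.34 to 28.7 ± 3.24 CPM (SD, n = 4; 0.83 ± 0.11 SE, edgeR quasi-likelihood adjusted p = 0.00106). Cthrc1, a secreted collagen triple helix protein gene, rose by 0.36 and Pcolce, the enhancer of procollagen processing, by 0.25. Pdgfrb, the receptor of mural cells and fibroblasts, fell (-0.25). In the same samples macrophage markers summed to 458 to 591 CPM (controls) and 551 to 691 CPM (knockouts). By edgeR 5 of these 12 markers rose, against 5.07% of all tested genes, and 1 rose in a model with Xist. DESeq2 and limma-voom each also called 1 of them, Cd163, lower. The part of macrophage markers in S100a4 was not tested. The count of rises among these fibroblast genes was 3 without CNP-Cdk7cKO 2 and 4 without Ctrl 2, 3 or 4. It was 1 in a model with Xist and 2 with the muscle markers.

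Enzymes that crosslink and process matrix were called higher for 8 of 19 genes and lower for 0 (edgeR; also 0 lower by DESeq2 and limma-voom), with a median log2 fold change of 0.15 beside 0.00 for all genes. Adamts14, a procollagen peptidase gene, rose from 48.6 ± 2.35 to 61.3 ± 1.32 CPM (0.33 ± 0.05, edgeR quasi-likelihood adjusted p = 0.0018). The collagen prolyl hydroxylase gene P3h1 (0.18), the prolyl hydroxylase subunit and disulfide isomerase gene P4hb (0.18) and the collagen chaperone gene Serpinh1 (0.16) rose by small amounts. The groups did not overlap for 9 of the 19, all higher, against 9.34% of all tested genes. Summed over the list, expression was 4065 to 4243 CPM (controls) and 4548 to 4667 CPM (knockouts). Rises numbered 5 without Ctrl 2, 4 without Ctrl 3, 0 with Xist and 1 in a model with the muscle markers, and 0 in the female libraries alone.

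Other matrix glycoproteins and proteoglycans rose for 8 of 35 genes and fell for 1 (median 0.10), or 25.7% called beside 11.7% of all tested genes. Tnc (tenascin C), which immature Schwann cells also make, rose most (0.98 ± 0.08), and Mfap2 (0.27), a microfibril gene, and the thrombospondin gene Thbs4 (0.36) rose less. Matn4 (matrilin 4) fell from 47.5 ± 3.63 to 25.9 ± 6.36 CPM (-0.87 ± 0.14, edgeR quasi-likelihood adjusted p = 0.00295). With Xist as a covariate 1 rose and 0 fell, and with the muscle markers 4 rose and 1 fell. Among 20 matrix proteases and inhibitors 2 rose and 0 fell (edgeR; limma-voom called 1 lower and DESeq2 0). The share called was below the 11.7% of all tested genes, while the share called higher was above the 5.07% of all tested genes. The 2 that rose were Mmp2, the gelatinase gene of fibroblasts, from 315 ± 8.05 to 494 ± 41.4 CPM (0.65 ± 0.06, edgeR quasi-likelihood adjusted p = 0.000105), and its membrane-bound activator gene Mmp14 (0.15). With 1 library left out, 1 of the 2 rose without Ctrl 3, Ctrl 4 or CNP-Cdk7cKO 2, and both did otherwise. The rises numbered 1 in a model with Xist, 1 with the muscle markers and 1 with the replicate block.

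Signals that act on fibroblasts gave calls in both directions. Of the 6 PDGF ligand and receptor genes outside the 32, 2 ligand genes rose: Pdgfa, from 70.3 ± 4.77 to 96.5 ± 6.42 CPM (0.46 ± 0.06, edgeR quasi-likelihood adjusted p = 0.00142), and Pdgfd, from 3.99 ± 0.28 to 6.74 ± 0.77 CPM (0.76 ± 0.13). Pdgfrb, counted above among the other fibroblast genes too, fell, so in this pathway the ligand genes Pdgfa and Pdgfd and the receptor gene Pdgfra were higher and the other receptor gene lower; in a model with Xist 0 of the list's 3 calls passed.

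The TGF-beta list held 2 rises (Smad3, 0.41, and the matrix target gene Tgfbi, 0.35) and 1 fall (the co-receptor gene Tgfbr3, -0.41). Of its 21 genes 14.3% were called, beside 11.7% of all tested genes, and the median was 0.00. In a model with Xist 0 rises and 1 fall passed, with the muscle markers 1 and 1, and in the female libraries 0 and 0. Wnt antagonists and targets other than Sfrp2 and Wif1 held 2 rises and 3 falls among 17 tested, or 29.4% beside 11.7% of all tested genes. Nkd1 (-0.33), a feedback inhibitor, Dkk3 (-0.29) and the secreted antagonist gene Frzb (-0.53) fell, and Sfrp5 rose from 201 ± 17.9 to 248 ± 20.5 CPM (0.31 ± 0.07, edgeR quasi-likelihood adjusted p = 0.0221). Left out 1 at a time, CNP-Cdk7cKO 1, CNP-Cdk7cKO 2 and Ctrl 3 each brought the Wnt rises to 0 and each other library to 1, and without Ctrl 2, CNP-Cdk7cKO 1 or CNP-Cdk7cKO 4 there were 2 falls. The Wnt list held 0 rises and 1 fall in a model with Xist, 0 and 1 with the muscle markers, and 0 and 0 in the female libraries.

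**Figure D4:**
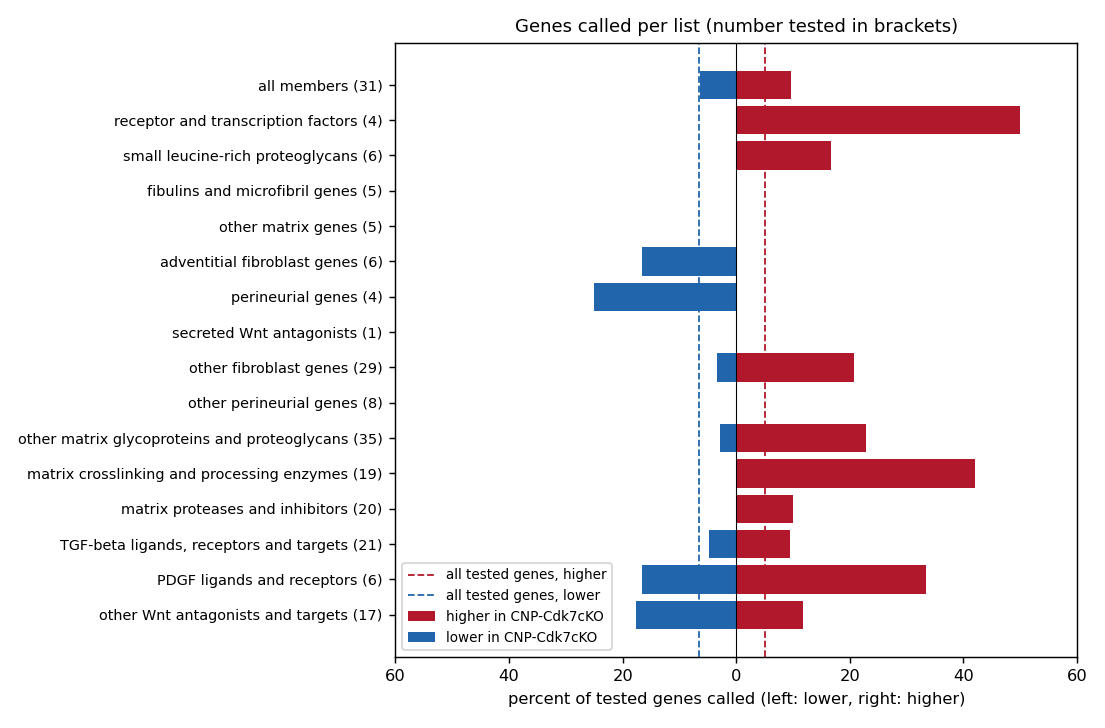
Percent of tested genes called in each list, lower to the left and higher to the right, with dashed lines at the percent over all tested genes (5.07 higher, 6.6 lower) and the number tested in brackets. Of the 31 tested members 3 were called higher and 2 lower; 8 of the 19 crosslinking and processing enzymes were called higher and 0 lower.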

How the data were processed

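Sciatic nerve RNA was extracted on columns with DNase, and stranded libraries of polyadenylated RNA were made from 250 ng, per the labels' protocols. The authors deposited estimated counts for each gene, which STAR and Salmon gave on GRCm38, per the submitters' processing notes. Their versions, settings and annotation: not given in the sources used here. Values were rounded, since 8.29% of them had decimals. Symbols were matched for 55141 of 55487 identifiers through GENCODE M21, whose merged exons gave the lengths for CPM per kb.

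Genes were kept by filterByExpr (minimum count 10, minimum total 15) and compared with edgeR 4.0.16, limma 3.58.1 and DESeq2 1.42.0 in R 4.3.3, with no covariate. The code was tested on simulated counts. The 32 members and all lists were chosen with earlier results of these data known. All members are described. Cdk7 was the check of the labels, and Xist the check of sex, which the labels do not give. Each other fibroblast, matrix, perineurial and signalling list is represented by up to 4 called genes, those of smallest p, and by its 2 most abundant genes if it held no call. Alternative fits used every gene unfiltered, genes at 1 CPM or more in at least 4 libraries, RLE factors, TMM factors computed with muscle, erythroid and adipocyte markers removed, limma-voom (quality weights), DESeq2, a block for the replicate number, Xist or muscle markers (20 genes, mean log2 CPM with a prior count of 2) as a covariate, each library left out, and the female libraries alone (Xist above 10 CPM). Libraries of a group differed by a chi-square per degree of freedom of 3.86 to 17.6, so none was a repeat sequencing of another. The check cannot tell whether separate libraries came from 1 animal. Erythroid markers summed to 745 to 2164 CPM in Ctrl and 933 to 1469 CPM in CNP-Cdk7cKO, and mural cell markers to 534 to 736 and 580 to 668 CPM.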

Additional observations from a re-analysis of the deposited data

Results flagged for a closer look

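Each tested gene was checked in each group for a library whose gap to its neighbour took most of the group's range by Dixon's criterion, and 3 of 62 groups were marked, where chance marks about 1 in 20. Fbn1, the fibrillin gene, was low in Ctrl 1 (326 CPM, the other controls 386 to 398 CPM). Lox was low in Ctrl 3 (109 CPM, the others 119 to 120 CPM). Lypd2 was high in Ctrl 4 (3.22 CPM, the others 2.22 to 2.26 CPM).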

How the results depend on the processing

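Among all genes, higher and lower calls numbered 763 and 994 in the reported fit, 76 and 167 in a model with Xist, 147 and 194 in a model with the muscle markers, 37 and 77 in the female libraries alone, and 468 to 656 and 654 to 860 with each library left out. Members called higher numbered 5 by limma-voom, 0 with Xist, 0 in the female libraries alone, and 2 to 6 with each library left out. Members called lower numbered 1 without the count filter, 1 with the replicate block, 1 with Xist, 0 with the muscle markers, 0 in the female libraries alone, and 1 to 2 with each library left out. The labels state no pairing by replicate number. Deviations correlated at 0.04, 0.08, 0.13 and 0.01 for same-number libraries and at -0.16 to 0.17 for different numbers, which does not settle whether the numbers pair libraries. With the block 1608 genes were called in place of 1757, and Gsn was the member that lost its call (edgeR quasi-likelihood adjusted p = 0.0916). The block moved standard errors both ways, from 0.17 to 0.065 for Fmod and from 0.038 to 0.043 for Gsn. From their correlation with genotype alone, standard errors would widen 1.58 times with Xist and 1.61 times with the muscle markers. Fitted standard errors changed by other amounts, with Xist from 0.062 to 0.065 for Fbn1 and from 0.067 to 0.12 for Osr2. The cause of these changes in calls and estimates was not tested.

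Several genes that were not called changed sign, Sfrp2 (-0.55 in the reported fit) by the most. In a model with Xist this held for Sparc (-0.077), Pi16 (0.19), Dpp4 (0.22), Ly6a (0.56), Thy1 (0.51), Cldn1 (-0.071) and Sfrp2 (1.14), and in the female libraries alone for the same genes (Sparc -0.074, Pi16 0.19, Dpp4 0.22, Ly6a 0.55, Thy1 0.50, Cldn1 -0.064 and Sfrp2 1.12). With the muscle markers it held for Osr1 (-0.051), Fmod (0.11), Tnxb (-0.010), Sparc (-0.0079), Clec3b (-0.13), Thy1 (0.15) and Sfrp2 (0.081), by limma-voom for Fmod (0.046) and Clec3b (-0.064), and without the count filter for Fmod (0.0018). With each library left out, Fmod ranged from -0.12 to 0.13, Tnxb from -0.043 to 0.046, Sparc from -0.020 to 0.041, Pi16 from -0.26 to 0.0069, Dpp4 from -0.13 to 0.020, Ly6a from -0.23 to 0.060, Clec3b from -0.071 to 0.082, Thy1 from -0.21 to 0.066 and Cldn1 from -0.037 to 0.15. None of the estimates of opposite sign passed. Depth limited Wif1 (at most 8 counts), Lypd2 and Sfrp2.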
